A study of Peromyscus maniculatus with 16 samples.

Results

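Amino acid catabolism and urea cycle genes were taken from a list of 53 names, arranged by pathway and proposed when earlier results of these data were known. The rule that selects them uses the names and no measured value. Of these, 51 were found among the 16910 genes of the count table, and all 51 passed the filter on low counts. The name Mut was not in the table, which holds methylmalonyl-CoA mutase as Mmut, and Gstz1_skip is no gene symbol. Liver RNA came from 16 deer mice (Peromyscus maniculatus), outbred rodents bred in closed colonies. Controls (C) were 6 males on regular chow, of which 5 were BW animals (P. maniculatus bairdii) and 1 was an SM2 animal (P. maniculatus sonoriensis). The other 10 animals received HFD, a fat-rich diet with sucrose (58 kcal% from fat), and were divided by the histology of their own livers. The group without steatosis (NS) held 5 males, 4 BW and 1 SM2. The group with steatosis (S) held 5 animals, of which 3 were BW females, 1 was a BW male and 1 was an SM2 male. Both diets were given for 28 weeks from 3 to 4 months of age, and the animals were 10 months old at the end.

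The liver is the main site of amino acid breakdown in the body. Each amino acid enters its own pathway, often through a transaminase, dehydrogenase, oxygenase or lyase, and the carbon skeletons end in glucose, ketone bodies or the citric acid cycle. The nitrogen that is released enters the urea cycle, which runs between mitochondria and cytosol of the hepatocyte and is most active around the portal vein. Most of these enzymes are typical hepatocyte products that respond to dietary protein, glucagon, glucocorticoids and insulin.

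Animals are named by their own numbers. Values are counts scaled to a common library size (CPM) after TMM normalization, a scaling that sets aside the genes with the most extreme ratios between libraries. Values of C are given as lowest, median and highest. Values of NS are given in the order 10865, 35930, 35937, 35963 and 35987, and values of S in the order 10880, 35955, 35982, 35990 and 36016. The first animal of NS and of S is the SM2 animal, the SM2 animal of C is 10876, and the females are 35955, 35982 and 35990. A member was called when its Benjamini-Hochberg adjusted p, from edgeR's quasi-likelihood test over 12639 genes, was under 0.1, and "rose" and "fell" are used only of called members. Fold changes are on the log2 scale, with the standard error (SE) of the fit. CPM is not corrected for transcript length, so levels are compared between animals and not between genes.

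The libraries held 4640733 to 11349971 counts, and the lowest count of any member in any animal was 7 (Asns). The hepatocyte markers Apoa1, Apob, Ttr, Fga, Fgb, Ahsg and Hnf4a had a summed level of 46462 to 65367 CPM in C, 55347 to 76439 in NS and 41183 to 59896 in S (7 of 10 listed genes). The kidney markers Slc34a1, Umod and Slc12a1 and the pancreatic marker Pnlip had 0 counts in every animal. S animal 36016 stood apart, with 2058 CPM of the collagen gene Col1a1 against 3.26 to 17.0 CPM in C and NS, and it was also the library with the fewest counts. In these bulk samples, fewer cells of a type and less RNA per cell cannot be told apart.

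Amino acid catabolism genes were lower in the livers with steatosis than in those of the controls. In S vs C, 20 of 51 members fell (39.2%) and 1 rose (1.96%), where 5.36% of all genes tested were called lower and 5.39% higher. The largest called decreases were in Acmsd, Prodh, Gpt and Tdo2, which with Bcat2, the member that rose, changed at least 2-fold. These 5 members are 9.80% of the list, and 4.06% of all genes were called and changed at least 2-fold. The median log2 fold change was -0.45 over the members and 0.10 over all genes tested, and 42 of 51 members were below 0. In 8 members (15.7%) every S animal was lower than every C animal, namely Otc, Arg1, Tdo2, Fah, Kmo, Gcsh, Gpt and Prodh, against 2.33% of all genes.

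In the livers that stayed free of steatosis on HFD, 0 of 51 members were called against C by edgeR, while 21 had an unadjusted p under 0.05 and DESeq2 called 8, all lower. The share of all genes called in this comparison by edgeR was 0.0554% higher and 0.0237% lower (0.459% and 0.443% by DESeq2), and 0.0712% were called and changed at least 2-fold. The median over the members was -0.31 and that over all genes 0.01, and 40 of 51 members were below 0. Gpt, Prodh, Ivd and Pcca (7.84% of members) were lower in every NS animal than in every C animal, against 0.427% of all genes. S vs C and NS vs C share the C animals, so their values are set side by side and are not independent of each other.

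Between the 2 HFD groups, 0 of 51 members were called, 3 had an unadjusted p under 0.05, and DESeq2 called 0. Of all genes, 0% were called higher in S than in NS, 0.00791% lower, and 0.00791% lower and at least 2-fold by edgeR, and DESeq2 called 0.475% higher and 0.467% lower. The median over the members was -0.09 against 0.04 over all genes. No member had S and NS animals without overlap, where 0.752% of all genes were lower in every S animal than in every NS animal. A p above the threshold does not show that the members were at one level in S and NS.

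Single animals, sex and scaling bear on these counts. Without 1 animal, 9 to 21 members were called in S vs C, with 9 without C animal 36007 or S animal 36016, 10 without C animal 35975 or S animal 35982, 12 without S animal 35955 and 13 without C animal 35972 or 36001. The share of all genes called in these fits ran from 3.55% without C animal 36007 to 12.3% without NS animal 10865. Aass, Bcat2, Bckdhb, Gcsh, Gpt, Kmo, Pcca and Prodh were called without each animal in turn, and the other 13 lost the call without at least 1 animal while keeping their direction. All 3 females were in S, so in them sex and steatosis cannot be told apart. With sex as a covariate 7 members were called lower and 2 higher in S vs C, where 3.42% of all genes were called lower and 6.33% higher. With males alone, which leaves 2 S animals, 6 were called lower and 1 higher, where 2.59% of all genes were called lower and 5.34% higher. Aass, Agxt, Gcsh, Ivd, Pcca and Prodh fell in both of these fits. Both take S vs C from the same 2 S males, 10880 (SM2) and 36016 (BW), so they are not separate checks. The median over the members was -0.43 with males alone. With scaling by total count instead of TMM, the median of all genes moved from 0.10 to 0.33, and 1998 genes were called higher (15.8%) and 288 lower (2.28%) instead of 681 and 678. The members then had a median of -0.22 and 36 were below 0, with 6 called lower and 4 higher (Bcat2, Csad, Glud1 and Slc25a13). The distance of the members' median from that of all genes was -0.54 with TMM and -0.55 with total counts.

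**Figure D1:**
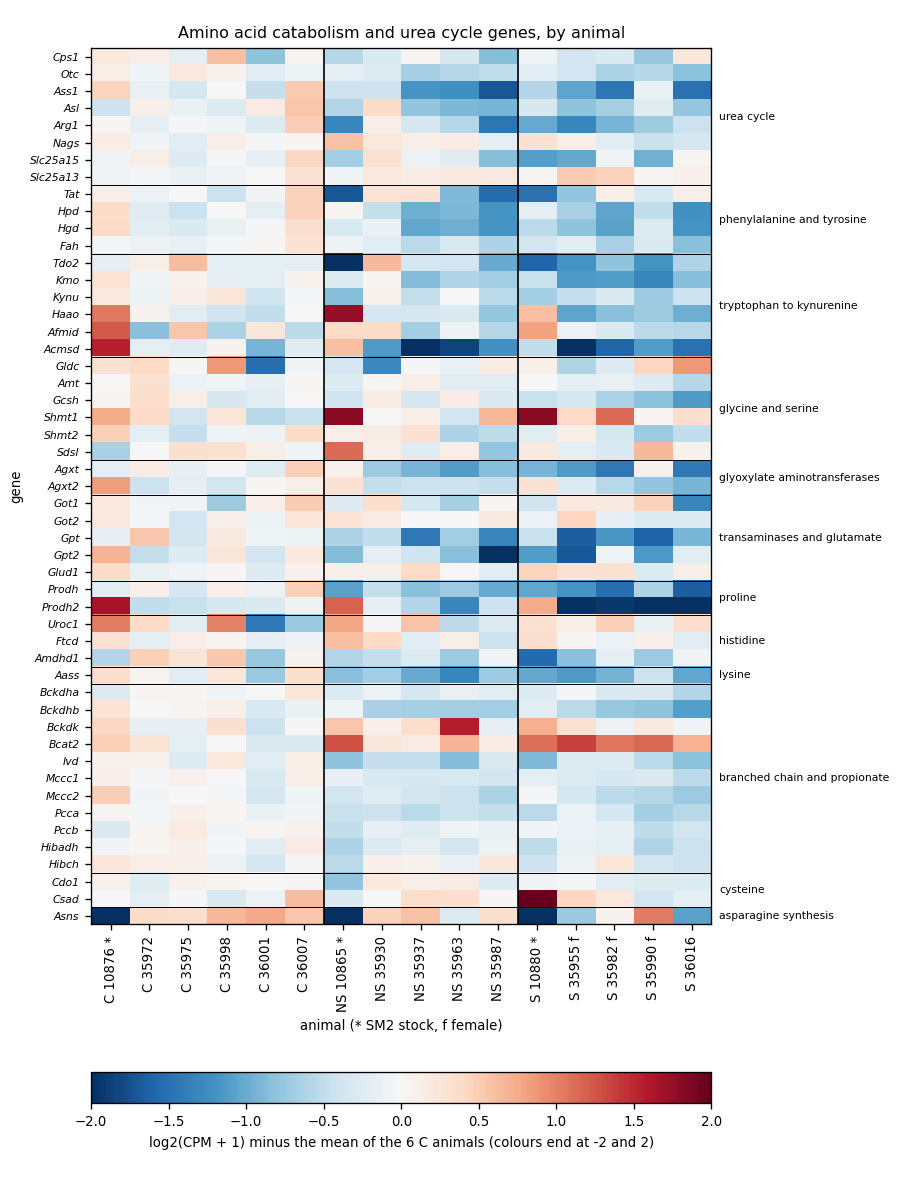
Expression of the 51 members (lines, by pathway) in the 16 animals (columns, by group), as log2(CPM + 1) minus the mean of the 6 C animals. Blue, lower than C, prevails in the urea cycle, tyrosine, tryptophan and branched chain blocks of NS and S, Bcat2 is red in S, and the SM2 animals (starred) stand out in Asns, Prodh2 and Haao.

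The urea cycle converts ammonia and aspartate nitrogen to urea. Of its 8 genes, 3 fell in S vs C (Otc, Ass1 and Arg1) and 5 were not called, and their median log2 fold change was -0.53. Cps1, the mitochondrial entry enzyme that makes carbamoyl phosphate, was at 3833, 7111 and 10069 CPM in C, at 4494, 5444, 6929, 5354 and 3702 in NS and at 6249.5, 5098, 5424, 3939 and 7830.3 in S. The groups overlapped, and Cps1 was not called in S vs C (log2 fold change -0.28 ± 0.23 (SE), adjusted p = 0.478) or NS vs C (log2 fold change -0.42 ± 0.23 (SE), adjusted p = 0.656). Otc joins carbamoyl phosphate to ornithine. It was at 1119, 1300.3 and 1504 CPM in C, at 1139, 1084, 826, 884 and 931 in NS and at 1111, 1005, 843, 882 and 736 in S. Every S animal and 4 of 5 NS animals were below the lowest C animal. Otc fell in S vs C (log2 fold change -0.52 ± 0.14 (SE), adjusted p = 0.0492), and the value in NS vs C was -0.43 ± 0.14 (SE, adjusted p = 0.442).

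Ass1 and Asl build and split argininosuccinate in the cytosol. Ass1 was at 4305, 5608 and 8449 CPM in C, at 4413, 4408, 2590.3, 2514 and 1798 in NS and at 3934, 2844, 2157, 5376 and 2096 in S. In S, animal 35990 was within the range of C and the other 4 were below it, while in NS 3 animals were below it. Ass1 fell in S vs C (log2 fold change -0.89 ± 0.29 (SE), adjusted p = 0.0854) and had a similar value in NS vs C, where it was not called (log2 fold change -0.96 ± 0.30 (SE), adjusted p = 0.408). Asl was at 1295, 1722 and 2542 CPM in C, at 1151, 2244, 999, 925 and 911 in NS and at 1383, 989.9, 1089, 1457 and 1017 in S. All NS animals but 35930 and 3 of 5 S animals were below C, and Asl was not called in either comparison (log2 fold change -0.58 ± 0.24 (SE), adjusted p = 0.155 in S vs C). Arg1, which releases urea from arginine, was at 2912, 3392 and 4916 CPM in C, at 1416, 3851, 2773, 2353 and 1286 in NS and at 1743, 1415, 1846, 2139.7 and 2599 in S. Every S animal was below C, and the NS animals ran from the lowest value of all 16 animals to a value above the C median. Arg1 fell in S vs C (log2 fold change -0.87 ± 0.26 (SE), adjusted p = 0.062). Nags, which makes the activator of Cps1, and the mitochondrial carriers Slc25a15 and Slc25a13 were not called, with log2 fold changes of -0.10, -0.55 and 0.24 in S vs C.

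Phenylalanine and tyrosine are degraded by a linear chain of enzymes to fumarate and acetoacetate. Of the 4 member genes, Hpd, Hgd and Fah fell in S vs C and Tat did not pass. Tat, the transaminase that commits tyrosine, varied more widely within NS and S than within C. It was at 2583, 3428 and 4761 CPM in C, at 1071, 4199, 4259.9, 1878 and 1198 in NS and at 1237, 2012, 3771, 2801 and 3744 in S. Both HFD groups held animals below and within the range of C, and the values were -0.38 ± 0.36 (SE, adjusted p = 0.547) in S vs C and -0.49 ± 0.36 (SE, adjusted p = 0.755) in NS vs C. Hpd makes homogentisate, the substrate of Hgd. It was at 3406, 4309.6 and 6318 CPM in C, at 4679, 3292, 2330.3, 2444 and 2014 in NS and at 4028, 2917, 2191, 3252 and 1967 in S. In each HFD group 4 of 5 animals were below C. Hpd fell in S vs C (log2 fold change -0.71 ± 0.25 (SE), adjusted p = 0.0986), and NS vs C gave -0.67 ± 0.25 (SE, adjusted p = 0.513).

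Hgd, which opens the ring of homogentisate, was at 867, 994 and 1404 CPM in C, at 857, 972, 514, 538 and 469 in NS and at 738, 609, 504, 884 and 462 in S. The exceptions to lower values were S animal 35990 and NS animal 35930, which lay within C. Hgd fell in S vs C (log2 fold change -0.76 ± 0.23 (SE), adjusted p = 0.0651). Fah, the last enzyme of the chain, was at 816, 886 and 1108 CPM in C, at 838, 774, 624, 736 and 591 in NS and at 698, 783, 576, 739 and 505 in S. It was below C in every S animal and in 4 of 5 NS animals, and it fell in S vs C (log2 fold change -0.46 ± 0.15 (SE), adjusted p = 0.077). In NS vs C neither was called, with -0.69 ± 0.23 (SE, adjusted p = 0.45) for Hgd and -0.35 ± 0.15 (SE, adjusted p = 0.579) for Fah.

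Tryptophan is oxidised along the kynurenine pathway, from which Acmsd diverts carbon away from NAD synthesis. Of its 6 members, Tdo2, Kmo, Kynu and Acmsd fell in S vs C, and the median of the 6 was -0.75. Tdo2, the entry dioxygenase, was at 2198, 2239 and 3868 CPM in C, at 592, 3945, 1993, 1929.9 and 1258 in NS and at 828, 1099.8, 1449, 1097 and 1664 in S. Every S animal was below C, whereas NS ran from the lowest to the highest value of all 16 animals. Tdo2 fell in S vs C (log2 fold change -1.07 ± 0.34 (SE), adjusted p = 0.0803), with -0.41 ± 0.34 (SE, adjusted p = 0.782) in NS vs C. Kmo, the kynurenine hydroxylase of the outer mitochondrial membrane, was at 211, 242 and 290.4 CPM in C, at 199.7, 249, 131, 158 and 149 in NS and at 176, 108, 110.1, 96.9 and 133 in S. All S animals and 4 of 5 NS animals were below C. Kmo fell in S vs C (log2 fold change -0.96 ± 0.18 (SE), adjusted p = 0.0163), and S vs NS gave -0.51 ± 0.19 (SE, adjusted p = 0.385). Kynu, which cleaves hydroxykynurenine, fell less, by 0.52 ± 0.17 on the log2 scale (SE, adjusted p = 0.0856).

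Acmsd was at 19.8, 33.2 and 116 CPM in C, at 59.6, 17.2, 8.68, 10.1 and 16.2 in NS and at 27.4, 6.80, 12.0, 17.3 and 13.1 in S. The SM2 animal was the highest of each group, and all BW animals on HFD were below every C animal. Acmsd fell in S vs C (log2 fold change -1.58 ± 0.53 (SE), adjusted p = 0.0911), at a level of 6.80 to 27.4 CPM in S. Without C animal 10876 it was not called (log2 fold change -1.05, adjusted p = 0.184). Haao, the step before Acmsd, was at 438, 569 and 1274 CPM in C, at 2089.8, 488, 489.9, 505 and 358 in NS and at 935, 297, 343, 374 and 313 in S. Here too the SM2 animals were the highest of their groups, and the 4 BW animals of S were below every C animal. Haao was not called in S vs C (log2 fold change -0.55 ± 0.45 (SE), adjusted p = 0.48), and among BW animals alone it fell (log2 fold change -0.70, adjusted p = 0.0368). Afmid, which hydrolyses formylkynurenine, was not called (-0.24 in S vs C).

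The glycine cleavage system splits glycine into carbon dioxide, ammonia and a folate-bound carbon unit. Of the 6 glycine and serine genes, Gcsh alone was called. Gldc, the decarboxylase of the system, was at 70.2, 225 and 367 CPM in C, at 159.7, 81.6, 196, 182 and 224 in NS and at 215, 132, 168, 267 and 366 in S. Its groups overlapped and it was not called, with 0.04 ± 0.34 (SE, adjusted p = 0.963) in S vs C. Gcsh, the carrier protein that shuttles the intermediate, was at 122, 155 and 194 CPM in C, at 115, 169, 121, 168 and 124 in NS and at 111, 122, 97.9, 86.0 and 68.5 in S. Every S animal was below C, while 3 of 5 NS animals were within it. Gcsh fell in S vs C (log2 fold change -0.66 ± 0.17 (SE), adjusted p = 0.0423). It was not called in NS vs C, with -0.14 ± 0.17 (SE, adjusted p = 0.873), or between S and NS, with -0.52 ± 0.18 (SE, adjusted p = 0.337). Amt, the aminomethyltransferase, had -0.23 in S vs C, Shmt1, Shmt2 and Sdsl had 0.82, -0.34 and 0.09, and none of the 4 was called.

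Agxt moves an amino group from alanine or serine to glyoxylate in peroxisomes. It was at 1004, 1112 and 1662 CPM in C, at 1262, 724, 625.3, 549.9 and 662 in NS and at 628, 544, 444, 1263 and 441 in S. In each HFD group 4 animals were below C and 1 was within it, the SM2 animal 10865 in NS and the female 35990 in S. Agxt fell in S vs C (log2 fold change -0.87 ± 0.28 (SE), adjusted p = 0.08), with -0.66 ± 0.28 (SE, adjusted p = 0.58) in NS vs C. Agxt2, its mitochondrial counterpart, was not called (-0.46 in S vs C).

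Among the transaminases and glutamate dehydrogenase, Gpt fell and Got1, Got2, Gpt2 and Glud1 were not called. Gpt, the alanine transaminase measured in blood as a sign of liver injury, was at 775, 933 and 1455 CPM in C, at 653, 709, 369.8, 618 and 400.3 in NS and at 734, 319.8, 446, 323 and 530.3 in S. All 10 HFD animals were below the lowest C animal. Gpt fell in S vs C (log2 fold change -1.12 ± 0.24 (SE), adjusted p = 0.0272), and NS vs C gave -0.89 ± 0.24 (SE, adjusted p = 0.315). With sex as a covariate it was not called (log2 fold change -0.69, adjusted p = 0.172). Gpt2, the mitochondrial form, had -0.79 in S vs C, and Got1, Got2 and Glud1 lay between -0.10 and 0.18.

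Prodh, the mitochondrial dehydrogenase that begins proline breakdown, had the smallest adjusted p of all members. It was at 293, 368 and 512 CPM in C, at 175, 266, 208, 223 and 182 in NS and at 178, 162, 129, 240.4 and 118 in S. All 10 HFD animals were below C. Prodh fell in S vs C (log2 fold change -1.18 ± 0.20 (SE), adjusted p = 0.0125). It was not called in NS vs C, with -0.83 ± 0.19 (SE, adjusted p = 0.187), or between S and NS, with -0.35 ± 0.20 (SE, adjusted p = 0.529). The decrease was called with sex as a covariate (-1.34, adjusted p = 0.0161) and with scaling by total count (-0.94, adjusted p = 0.0151). Prodh2, which oxidises hydroxyproline, was at 116, 131 and 511 CPM in C, at 369.6, 145, 108, 65.2 and 121 in NS and at 272, 39.0, 42.1, 28.6 and 23.8 in S. The SM2 animal was the highest of each group, and the 4 BW animals of S, male and female, were below all other animals. With both stocks in 1 fit, Prodh2 was not called (log2 fold change -1.25 ± 0.64 (SE), adjusted p = 0.245 in S vs C and -0.99 ± 0.66 (SE, adjusted p = 0.586) in S vs NS). Among BW animals alone it fell in S vs C (log2 fold change -1.96, adjusted p = 0.0024) and in S vs NS (-1.70, adjusted p = 0.0171), and it was the only member called in S vs NS under any of the alternatives run.

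Aass, a mitochondrial enzyme that carries out the first steps of lysine breakdown, was at 289, 538 and 616 CPM in C, at 269, 301, 239.6, 194 and 292 in NS and at 237, 221, 251, 358 and 235 in S. In S 4 of 5 animals were below C and in NS 3 of 5, and the lowest C animal, 36001, was within the range of both. Aass fell in S vs C (log2 fold change -0.94 ± 0.20 (SE), adjusted p = 0.0223), and its value in NS vs C was log2 fold change -0.95 ± 0.20 (SE), adjusted p = 0.136. DESeq2 called it in NS vs C as well (-0.96, adjusted p = 0.0013). The 3 histidine genes Uroc1, Amdhd1 and Ftcd were not called, with -0.02, -0.67 and 0.02 in S vs C.

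**Figure D2:**
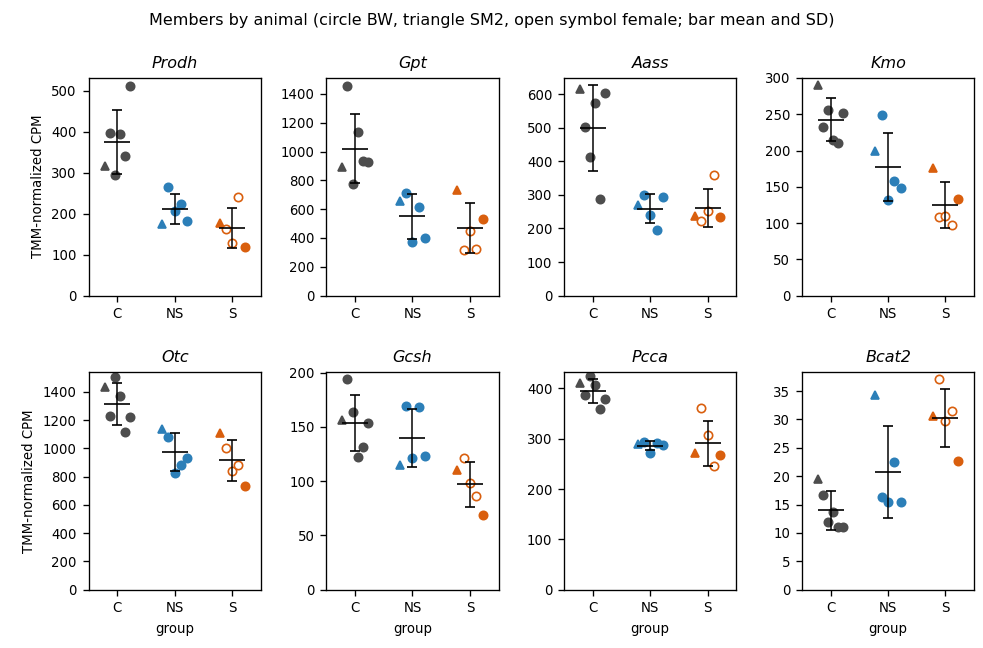
CPM of 8 members in every animal by group (circles BW, triangles SM2, open symbols female), with the mean and SD of the group. All HFD animals were below all C animals in Prodh and Gpt, all S animals were below C in Kmo, Otc and Gcsh, and all S animals were above C in Bcat2.

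Branched chain amino acids are transaminated mainly outside the liver by Bcat2, and the liver takes up the resulting keto acids, which the Bckdh complex oxidises. Of the 11 genes of this pathway and of propionate breakdown, Bckdhb, Ivd, Mccc1, Mccc2 and Pcca fell, Bcat2 rose and 5 were not called in S vs C. Bcat2 was at 11.0, 12.8 and 19.5 CPM in C, at 34.3, 16.2, 15.5, 22.6 and 15.5 in NS and at 30.6, 37.1, 29.7, 31.5 and 22.7 in S. Every S animal was above the highest C animal, and so were the NS animals 10865 and 35963. Bcat2 rose in S vs C (log2 fold change 1.12 ± 0.22 (SE), adjusted p = 0.0207), with 0.57 ± 0.23 (SE, adjusted p = 0.535) in NS vs C. With males alone its adjusted p was 0.105, at a log2 fold change of 0.93.

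Bckdha and Bckdhb are the subunits of the branched chain keto acid decarboxylase. Bckdha was at 326, 397 and 464 CPM in C, at 323, 359.9, 311, 352 and 333 in NS and at 329, 386, 320.3, 319 and 260.0 in S. All HFD animals were below the C median, and Bckdha was not called in S vs C (log2 fold change -0.29 ± 0.12 (SE), adjusted p = 0.171), although DESeq2 called it (adjusted p = 0.0736). Bckdhb was at 275, 348 and 409 CPM in C, at 318, 216, 213, 209.7 and 212 in NS and at 294, 233, 201, 195 and 159 in S. In both HFD groups the 4 BW animals were below C and the SM2 animal was within it. Bckdhb fell in S vs C (log2 fold change -0.66 ± 0.17 (SE), adjusted p = 0.0415), and NS vs C gave -0.55 ± 0.17 (SE, adjusted p = 0.402). Bckdk, the kinase that inhibits the complex, was not called (0.22 in S vs C).

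Ivd, the dehydrogenase of leucine breakdown, was at 407, 515 and 569 CPM in C, at 279.6, 354, 352, 268 and 401 in NS and at 266, 407, 403, 335 and 275 in S. Every NS animal was below C, as were all S animals but 35955, which exceeded the lowest C animal by under 1 CPM. Ivd fell in S vs C (log2 fold change -0.55 ± 0.16 (SE), adjusted p = 0.0589), and the value in NS vs C was log2 fold change -0.57 ± 0.16 (SE), adjusted p = 0.315. Pcca, a subunit of propionyl-CoA carboxylase, was at 359, 397 and 424 CPM in C, at 289, 293, 271, 292 and 287 in NS and at 272, 362, 307, 246 and 268 in S. The NS animals lay close together and entirely below C, and in S the female 35955 lay just within C. Pcca fell in S vs C (log2 fold change -0.44 ± 0.11 (SE), adjusted p = 0.0452), and NS vs C gave -0.46 ± 0.11 (SE, adjusted p = 0.243). Mccc1 and Mccc2, the subunits of methylcrotonyl-CoA carboxylase in leucine breakdown, fell in S vs C by 0.33 ± 0.11 (SE, adjusted p = 0.0877) and 0.45 ± 0.15 (SE, adjusted p = 0.0986) on the log2 scale. Pccb, Hibadh and Hibch, of propionate and valine breakdown, were not called, with -0.25, -0.36 and -0.20.

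Csad, which makes hypotaurine from cysteine sulfinate, was at 40.0, 46.6 and 76.2 CPM in C, at 40.1, 49.1, 62.9, 62.2 and 49.9 in NS and at 251, 66.7, 57.3, 37.5 and 42.8 in S. The SM2 animal of S was far above all others, and the rest of S overlapped with C. Csad was not called in S vs C (log2 fold change 0.86 ± 0.39 (SE), adjusted p = 0.189), but rose with sex as a covariate (1.55, adjusted p = 0.04). That fit takes S vs C from the 2 S males, the SM2 animal at 251 CPM and 36016 at 42.8 CPM. The value of 36016 was below the C median, so this call rests on the SM2 animal. Cdo1, which makes cysteine sulfinate, was not called (-0.18 in S vs C). Asns, the single synthetic enzyme of the list, makes asparagine and is a known target of the amino acid stress response. It was at 1.97, 25.2 and 30.9 CPM in C, at 0.88, 25.1, 27.5, 14.8 and 22.8 in NS and at 0.85, 10.4, 18.9, 38.1 and 8.07 in S, and the values of about 1 to 2 CPM were those of the 3 SM2 animals. Asns was not called in S vs C (log2 fold change -0.55 ± 0.74 (SE), adjusted p = 0.682) or NS vs C (log2 fold change -0.31 ± 0.73 (SE), adjusted p = 0.949).

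**Figure D3:**
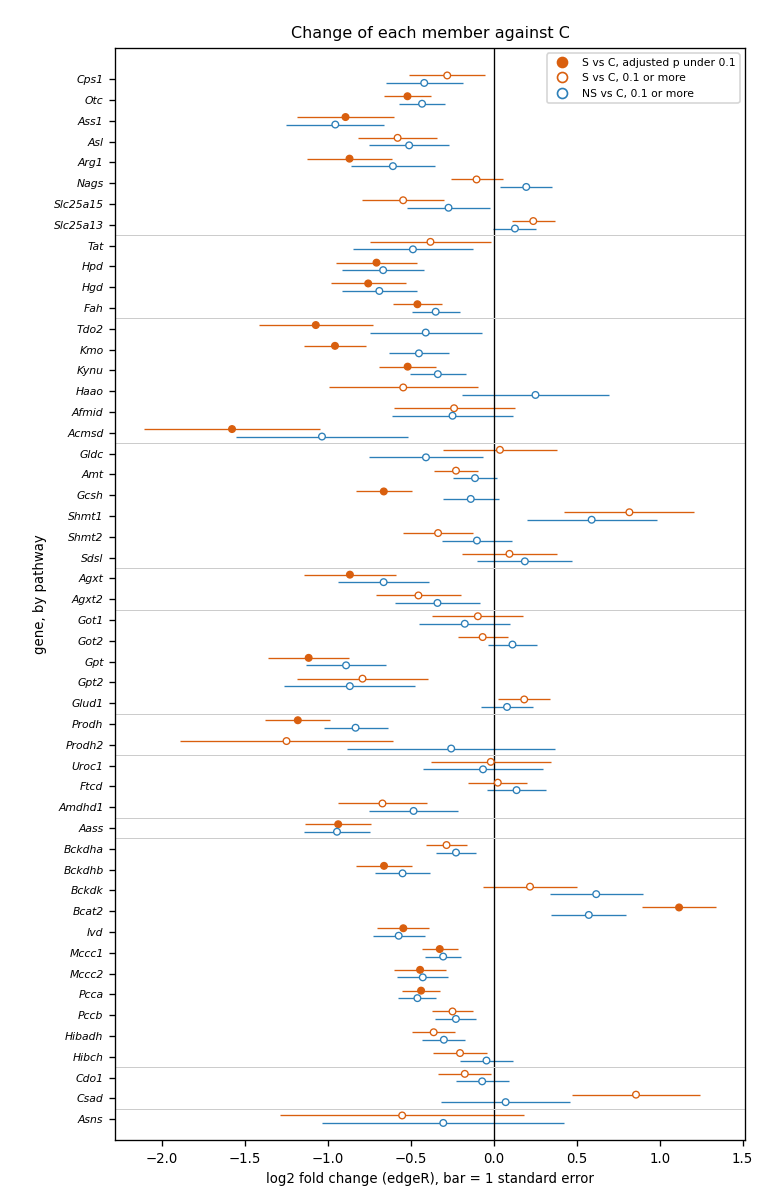
Log2 fold change of each member in S vs C (orange) and NS vs C (blue), with 1 standard error, from a fit of all 16 animals in which both comparisons share the C animals. Filled points passed at an adjusted p under 0.1, and all of them belong to S vs C, 20 to the left of 0 and Bcat2 to the right.

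Stock was compared after the values had been seen, with group as a covariate, between 3 SM2 and 13 BW animals. In SM2, 12 members were higher (23.5%) and 3 lower (5.88%), where 11.9% of all genes were called higher and 9.85% lower. Prodh2, Haao and Agxt2 were higher in every SM2 animal than in every BW animal, as were 3.77% of all genes, and Asns was lower, as were 3.04%. Prodh2 was at 511, 370 and 272 CPM in the SM2 animals of C, NS and S and at 23.8 to 151 CPM in BW (log2 fold change 2.31 ± 0.21 (SE), adjusted p = 1.82e-06). Haao was at 1274, 2090 and 935 CPM in SM2 and at 297 to 649 CPM in BW (1.67 ± 0.16 (SE), adjusted p = 2.53e-06). Both are oxidising enzymes whose levels were higher in each SM2 animal than in any BW animal on the same or another diet.

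Asns was at 1.97, 0.88 and 0.85 CPM in the SM2 animals, from 20, 7 and 7 counts, and at 8.07 to 38.1 CPM in BW (-4.19 ± 0.47 (SE), adjusted p = 1.76e-05). How reads of SM2 animals match the reference, which was used for both stocks, was not tested, and it bears on any gene that differs between the stocks. Agxt2 was at 571, 390 and 389 CPM in SM2 and at 167 to 347 CPM in BW (0.88 ± 0.14 (SE), adjusted p = 0.000393). Acmsd (1.78) and Shmt1 (1.28) were also higher in SM2, and Amdhd1 (-0.68) and Tdo2 (-0.84) lower. Each group held 1 SM2 animal, so stock was nearly balanced over diet and steatosis.

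**Figure D4:**
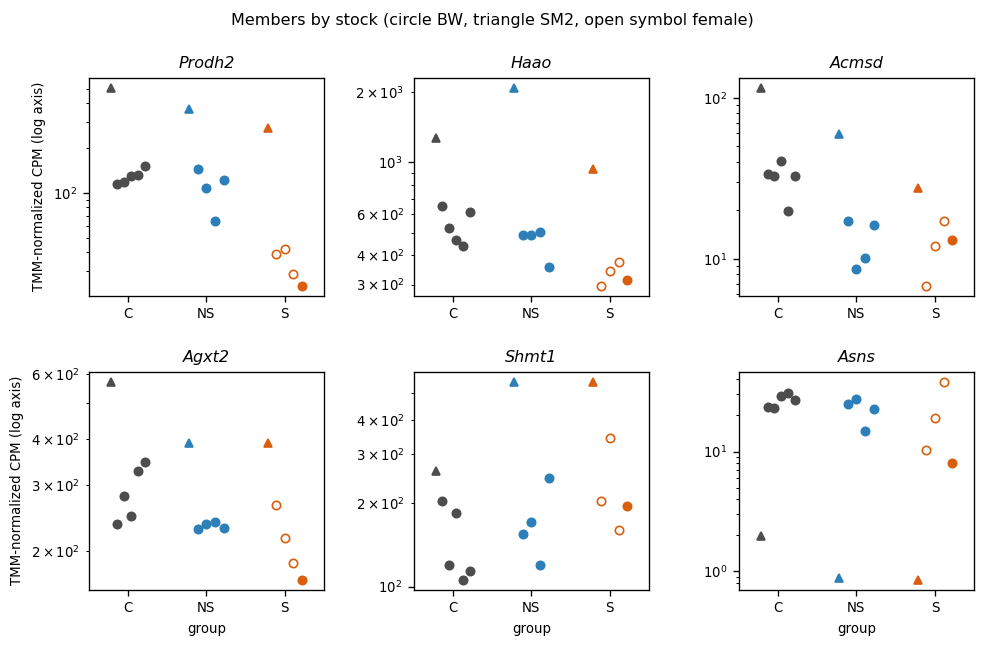
CPM of 6 members in every animal on a log axis, by group (circles BW, triangles SM2, open symbols female). In each group the SM2 animal is above the BW animals in Prodh2, Haao, Acmsd, Agxt2 and Shmt1 and below them in Asns.

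Members differed in how tightly they were held within a group. The median within-group SD of log2(CPM + 1) was 0.384 over the members and 0.295 over the 5211 genes with a mean of at least 18.9 CPM, the mean of the lowest member. Mccc1 varied least (0.128), followed by Pcca and Bckdha (0.133 and 0.159), all of the branched chain and propionate group. Asns (1.53), Prodh2 (1.05) and Acmsd (0.862) varied most, the 3 members with the largest fold changes between the stocks. Each group held 1 SM2 animal, so a difference between the stocks is part of this SD by its construction.

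The study's index of coordination, Pc, is for each gene the correlation between its list of correlations with all other genes in one group and the same list in another. A value near 1 means that the gene kept its partners, and a value below 0 that they were inverted. For S vs C the members' median Pc was 0.022 (0.105 over all genes), for NS vs C it was 0.157 (0.154 over all genes), and for S vs NS it was 0.196 (0.166 over all genes). The jackknife SE of the members' median over animals was 0.090, 0.181 and 0.184. It does not cover the median of all genes, which comes from the same animals, so the distances between the medians were not tested. On the counts as deposited, which carry library depth, the members' median for S vs C was 0.258, and the median of all genes was not computed. Tat, Aass, Bcat2 and Mccc1 were below -0.2 for S vs C, where 6.07% of all genes were. Kynu, Sdsl and Gpt were below it for NS vs C (5.73% of all genes), and Csad was for S vs NS (7.32%). In the sum of the 3 Pc values, 4 of 51 members were among the top 5%, namely Afmid, Haao, Agxt2 and Prodh2 (658 of 13144 genes ranked, 5.01%). These 4 are among the 12 members called higher in SM2, and the others of the 12, such as Hpd and Bcat2, were not in the top 5%. A link with stock was not tested. With BW animals alone, the members' medians for the same comparisons were -0.060, 0.031 and 0.042. The median of all genes was not computed with BW animals alone, so these values have nothing to be set against.

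Related genes of amino acid metabolism, from lists fixed beside the members, were counted in the same way. Of 50 other breakdown enzymes tested, 16 fell in S vs C and 1 rose, with a median of -0.39, and 1 fell in NS vs C. Gnmt, which methylates glycine, had a median of 2373 CPM in C (1556 to 4806), 482 in NS (305 to 1046) and 630 in S (230 to 771). Its C animals were above all others, and it fell in S vs C (log2 fold change -2.29 ± 0.38 (SE), adjusted p = 0.0125) and in NS vs C (-2.19 ± 0.38 (SE), adjusted p = 0.0494). Sqor, which oxidises hydrogen sulfide, and Kyat3, a kynurenine aminotransferase, fell in S vs C by 0.98 and 0.73 on the log2 scale (adjusted p = 0.0125 and 0.0281). Mmut, named here because the list holds its older name, fell by 0.39 (adjusted p = 0.0502).

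Of 15 amino acid transporters tested, 3 fell and 1 rose in S vs C. Slc16a10, which carries aromatic amino acids, was at 100.7 to 130.0 CPM in C, 52.0 to 93.5 in NS and 48.8 to 73.0 in S, so that no HFD animal reached C (log2 fold change in S vs C -0.96 ± 0.16 (SE), adjusted p = 0.0125). Slc1a2, a glutamate transporter, and Slc1a4, which carries neutral amino acids, fell by 1.38 and 1.69 on the log2 scale (adjusted p = 0.0281 and 0.0803), while Slc7a5, also a carrier of neutral amino acids, rose. Slc7a5 was at 0 to 0.759 CPM in C, and its highest values, 12.4 CPM in NS and 23.5 in S, were those of the SM2 animals 10865 and 10880. Of 14 genes of serine and proline synthesis and of the ATF4 response, 0 were called by edgeR and 2 had an unadjusted p under 0.05. Of 12 regulators, Tcf7l2, a transcription factor of the Wnt pathway, rose (0.86 ± 0.21 (SE), adjusted p = 0.0372) and the others were not called.

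The markers of liver zones were set beside these values, since the urea cycle is periportal. The summed level of the 8 periportal markers was 9497 to 13747 CPM in C, 6604 to 12527 in NS and 5284 to 10874 in S, and 2 of them fell in S vs C (Gls2 and Cyp2f2). Of the pericentral markers 9 of 10 were in the table, with sums of 29923 to 47330 CPM in C, 19683 to 35923 in NS and 17798 to 29992 in S, and 1 fell (Slc1a2). The periportal genes Hal and Sds, which begin histidine and serine breakdown, had -0.40 and -0.26 in S vs C (adjusted p = 0.435 and 0.642). The pericentral genes Glul and Oat, for glutamine synthesis and ornithine breakdown, had 0.19 and -1.69 (adjusted p = 0.708 and 0.116). The medians in S vs C were -0.33 over the periportal, -0.38 over the pericentral and -0.48 over the 7 hepatocyte markers, and -0.45 over the members. Of the hepatocyte markers 5 were below 0. Fgb, Ttr and Fga fell, and Apoa1 rose. Markers of other cell types were mostly above 0 in S vs C, and few were called. Of all 12639 genes tested, 7305 were above 0 (median 0.10). All 8 lymphocyte markers were above 0 (median 0.54, 0 called by edgeR and 1 at an unadjusted p under 0.05). All but Ptprc were at 5.05 CPM or less in every animal. Of the 8 stellate and fibroblast markers 7 were above 0 (median 0.64), and Col1a1 and Col1a2 rose and Dcn fell. Col1a1 was at 2058 CPM in S animal 36016 and at 3.71 to 10.0 in the other S animals (5.00 to 17.0 in C). Col1a2 was at 1059 CPM in 36016 and at 16.7 to 47.0 in the others (13.2 to 33.4 in C). Of the 6 endothelial and 5 bile duct markers, 4 and 3 were above 0 (medians 0.32 and 0.19) and 0 were called by edgeR (1 and 0 had an unadjusted p under 0.05). Of the 6 Kupffer and myeloid markers 4 were above 0 (median 0.23) and 1 fell (S100a8). Summed levels overlapped between the groups, at 9.15 to 25.8 CPM in C, 13.0 to 18.8 in NS and 15.8 to 49.2 in S for the lymphocyte markers. For the stellate and fibroblast markers they were 276 to 504 CPM in C, 210 to 391 in NS and 231 to 3390 in S. The part of cell composition or zonation in the members' decrease was not tested.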

How the data were processed

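The deposited table holds raw read counts per gene for 16 liver samples. According to the methods and the submitters' processing notes, reads were mapped by the authors with STAR 2.7.2 on the HU_Pman_2.1 assembly, and featureCounts (Subread) assigned those with a single position to genes. The deposited values are unnormalized counts. The strand setting of the counting and the conversion to gene symbols are not given in the sources used here, so genes that overlap, lie antisense or have a near-identical copy have uncertain counts. Totals were 4640733 to 11349971 per animal, and 0 columns were left unmapped. Groups, stock and sex were taken from the sample labels. The labels name animals but not their litters or sequencing batches, so p-values measure the spread between these animals.

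The quasi-likelihood test of edgeR 4.0.16 (R 4.3.3, limma 3.58.1) was run after TMM normalization on every gene that reached 0.5 CPM in 1 animal or more (1 fit of the 16 animals without covariates, Benjamini-Hochberg over 12639 genes, threshold 0.1). Fits were tested on simulated data. Pc was computed on CPM by total count in Python 3.11.15 with numpy 2.4.6 and pandas 2.3.3, and figures were drawn with matplotlib 3.10.9. Every pair of animals within a group differed by more than sampling noise, with a chi-square per degree of freedom of at least 19.7.

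The members and lists were chosen with earlier results of these data known. Values in every animal are given for the 16 members with the smallest adjusted p, for 11 entry or control steps (Cps1, Otc, Ass1, Asl, Arg1, Tat, Tdo2, Hpd, Gldc, Bckdha and Asns) and for the 3 members with the largest fold change of each comparison, 27 in all. Related genes and markers are named where called, at most 4 per list, and Glul, Oat, Hal and Sds whatever their values. A result for 1 related gene is not reported here. The alternatives tried included other filters and thresholds, RLE size factors, DESeq2 1.42.0, sex or stock as covariates, BW or male animals alone, only the groups compared, other scales for Pc and each animal left out. Scaling by total count, sex and stock together and the comparison of stocks were added after the data were seen. No sequences or coordinates are given, because no genome of the build used by the files was at hand.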

Additional observations from a re-analysis of the deposited data

Results flagged for a closer look

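For the 27 members with values in every animal, Dixon's test was run in each group for 1 animal far from the rest. An animal stood out in 18 of these 81 tests, and some animals did so in more than 1 member. Chance would give about 1 in 20 if the tests were independent and the members chosen without regard to their values. The tests share the same 16 animals, and some members were chosen by their fold change. The 18 cases can therefore not be set against that rate.

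The animal that stood out was SM2 in 12 cases and BW in 6. In Haao it was at 1274 CPM in C (the others 438 to 649), at 2090 in NS (358 to 505) and at 935 in S (297 to 374). In Prodh2 it was at 511 CPM in C (116 to 151), at 370 in NS (65.2 to 145) and at 272 in S (23.8 to 42.1). In Acmsd it was at 116 CPM in C (19.8 to 40.6) and at 59.6 in NS (8.68 to 17.2). Asns stood out downwards in the SM2 animal of C, at 1.97 CPM (23.2 to 30.9). NS animal 10865 was also high in Bckdhb, at 318 CPM (210 to 216), and in Agxt, at 1262 CPM (550 to 724), and S animal 10880 in Csad, at 251 CPM (37.5 to 66.7).

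Of the BW animals, S animal 35990 was high in Aass, at 358 CPM (221 to 251), and in Agxt, at 1263 CPM (441 to 628). C animal 36007 was high in Arg1, at 4916 CPM (2912 to 3617), and in Csad, at 76.2 CPM (40.0 to 48.7). C animal 35975 was high in Tdo2, at 3868 CPM (2198 to 2744), and NS animal 35930 in Asl, at 2244 CPM (911 to 1151). Without the animal that stood out, Aass and Agxt were called lower in S vs C, while Arg1 had -0.76 (adjusted p = 0.134) and Tdo2 -0.92 (adjusted p = 0.168). The cause was not tested in any of these cases.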

How the results depend on the processing

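All called members kept their direction under all alternatives. In S vs C, where 21 members were called, DESeq2, RLE size factors, other filters, only the groups compared, BW animals alone, stock as a covariate and sex with stock gave 18 to 27. Of the 10450 to 14659 genes tested in these fits, 492 to 1032 were called higher and 547 to 983 lower. The count was 9 with sex as a covariate, 7 with males alone, 10 with scaling by total count, 9 at an adjusted p under 0.05 and 5 at 2-fold or more, and 9 to 21 when 1 animal was left out. Males alone leave fewer animals. With sex as a covariate S vs C likewise rests on the 2 S males, since all 3 females were in S. For the other settings the cause was not tested. In NS vs C, with 0 members called by edgeR (21 at an unadjusted p under 0.05), DESeq2 called 8, stock as a covariate 3, sex with stock 5, and leaving out each animal 0 to 2, the 2 without NS animal 35930. Of all 12639 genes, DESeq2 called 58 higher and 56 lower, stock as a covariate 28 and 24, and sex with stock 37 and 31. Without NS animal 35930, 28 of 12633 genes were called higher and 21 lower. In S vs NS, with 0 called (3 at an unadjusted p under 0.05), stock as a covariate, sex with stock and BW animals alone each called 1, Prodh2. Of all 12639 genes, stock as a covariate called 12 higher and 10 lower and sex with stock 441 and 84. BW animals alone gave 11 higher and 10 lower of 12333. Between stocks, 15 members were called, where 11.9% of all genes were called higher and 9.85% lower. With each animal left out it was 10 to 17 members, and the share of all genes in those fits is not given here. The median Pc of the members in S vs C was 0.258 on the counts as deposited, which carry library depth, and 0.022 on CPM. The median of all genes was computed on CPM only. No paired analysis was possible because the labels give animal numbers that no groups share. Depth limits Asns in SM2 animals, at 7 to 20 counts, and Bcat2 and Bckdk at about 11 to 52 CPM.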
